A study of Mus musculus with 12 samples.

Results

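Interferon-stimulated genes were followed in mouse embryonic fibroblasts with and without focal adhesion kinase (FAK), a tyrosine kinase that works where integrins hold the cell to its matrix. The set held 43 genes chosen by name, without antigen presentation genes, out of 17016 genes named on the array. A probe was matched to 38 of them, and none was matched to Herc6, Mx1, Mx2, Dtx3l and Xaf1. Of the 38, 32 exceeded background clearly on every one of 3 arrays in some group and were tested among 12435 genes. The other 6, Oas2, Oas3, Rsad2, Cmpk2, Iigp1 and Ifi44, did not reach that level in any group. Of the 32, 7 (Ifih1, Zbp1, Usp18, Ifit1, Oas1a, Gbp3 and Parp14) passed only through the dense rescue arrays. All but Zbp1 had their highest mean there, so a difference for them was built into the filter. Zbp1 was not higher there than in sparse rescue cells and was called in no comparison.

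The cultures formed 4 groups of 3 and were measured on 1 one-colour array per culture: dense KO, sparse KO, dense rescue and sparse rescue. The KO line has no FAK, and the rescue line is 1 clone, DA2, of such cells that carries FAK again. Background knowledge, not the labels, gives that FAK-null fibroblasts of this kind came from embryos that also lacked the tumour suppressor p53, which would then be shared by all groups. Dense dishes received 8200000 cells and sparse dishes 410000, in 10 ml of medium on a 10 cm dish, and were harvested after 24 h. Rescue cells alone were kept in hygromycin B (135 ug/ml) and non-essential amino acids, so that line and medium cannot be told apart. Cultures were numbered 1 to 3 by experimental day, and each group had 1 culture on each day.

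Cells that detect foreign or misplaced nucleic acid secrete type I interferons. These bind the Ifnar1 and Ifnar2 receptor chains, whose kinases Jak1 and Tyk2 phosphorylate transcription factors such as Stat2. A complex that holds Stat2 and Irf9 binds the interferon-stimulated response element (ISRE), while the response to interferon gamma typically runs through the gamma-activated site (GAS). The induced genes encode sensors, transcription factors, antiviral effectors, GTPases that attack vacuoles of intracellular microbes, and feedback inhibitors. Fibroblasts are a classical cell type in which this response was worked out.

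The proximal promoters of these genes show the element by which the family is known, and they are given here to set the sequence beside the values that follow. RefSeq promoter windows (GRCm38.p6), which run from 250 bases before to 50 bases after each gene start, were found for 32 of the 43 genes. The ISRE core (GAAA, then NN, then GAAA), read on both strands, lay in 20 of 39 member windows (51.3%), and in 1131 of 32851 windows of all genes (3.44%). The GAS core TTCNNNGAA, which reads the same on both strands, lay in 8 of the 39 member windows (20.5%) and in 8.3% of all windows. A match describes the letters only and was not tested as a binding site. Ifit1, which was well above background only in dense rescue cells, and Bst2, which was higher in KO cells, are shown over the 250 bases before the start, with ISRE cores in capitals.
Ifit1 (chr19:34640639-34640888, plus strand): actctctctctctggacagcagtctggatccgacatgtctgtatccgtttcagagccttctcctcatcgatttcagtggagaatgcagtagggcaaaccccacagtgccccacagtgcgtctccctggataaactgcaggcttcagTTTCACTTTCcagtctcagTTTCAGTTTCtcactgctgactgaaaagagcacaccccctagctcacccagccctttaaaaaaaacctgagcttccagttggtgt
Bst2 (chr8:71537473-71537722, minus strand): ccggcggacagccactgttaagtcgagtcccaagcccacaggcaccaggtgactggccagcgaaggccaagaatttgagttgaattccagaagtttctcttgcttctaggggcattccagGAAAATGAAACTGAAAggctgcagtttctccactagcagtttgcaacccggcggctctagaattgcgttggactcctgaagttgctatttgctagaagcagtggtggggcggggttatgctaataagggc

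Shorter stretches around the core follow for some members whose values differed. They were taken only from windows that held the core, so the likeness of the cores follows from that choice. Cores again stand in capitals, overlapping cores run together, and each line reads in the direction of its gene.
Isg15 (chr4:156200860-156200911, minus strand): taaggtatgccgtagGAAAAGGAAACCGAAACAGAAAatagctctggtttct
Ifit3 (chr19:34583392-34583431, plus strand): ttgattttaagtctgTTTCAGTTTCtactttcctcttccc
Gbp2 (chr3:142620589-142620628, plus strand): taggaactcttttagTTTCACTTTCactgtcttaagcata
Gbp3 (chr3:142559984-142560029, plus strand): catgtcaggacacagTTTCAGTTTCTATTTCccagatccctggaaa
Igtp (chr11:58199507-58199546, plus strand): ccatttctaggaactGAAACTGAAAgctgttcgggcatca
Trim30a (chr7:104465205-104465244, minus strand): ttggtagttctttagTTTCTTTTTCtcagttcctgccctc
Trim30d (chr7:104507866-104507905, minus strand): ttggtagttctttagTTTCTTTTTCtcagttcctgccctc
Trim12c (chr7:104353354-104353393, minus strand): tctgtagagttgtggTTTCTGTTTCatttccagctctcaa
Cxcl10 (chr5:92349078-92349117, minus strand): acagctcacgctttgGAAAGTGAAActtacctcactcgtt
The 40-base stretches of Trim30a and Trim30d were identical. Windows with the ISRE core made up 17 of the 28 windows of members that were higher in dense than in sparse rescue cells (60.7%), and 3 of the 5 windows of members that were higher in sparse KO than in sparse rescue cells. Both shares lie near that of all tested members, 18 of 32 windows (56.2%). No ISRE core was found in the windows of Oasl1, Oasl2, Irf7 and Irf9, which says only that these letters are not in the window. The map of motif positions shows where the matches lay.

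**Figure D1:**
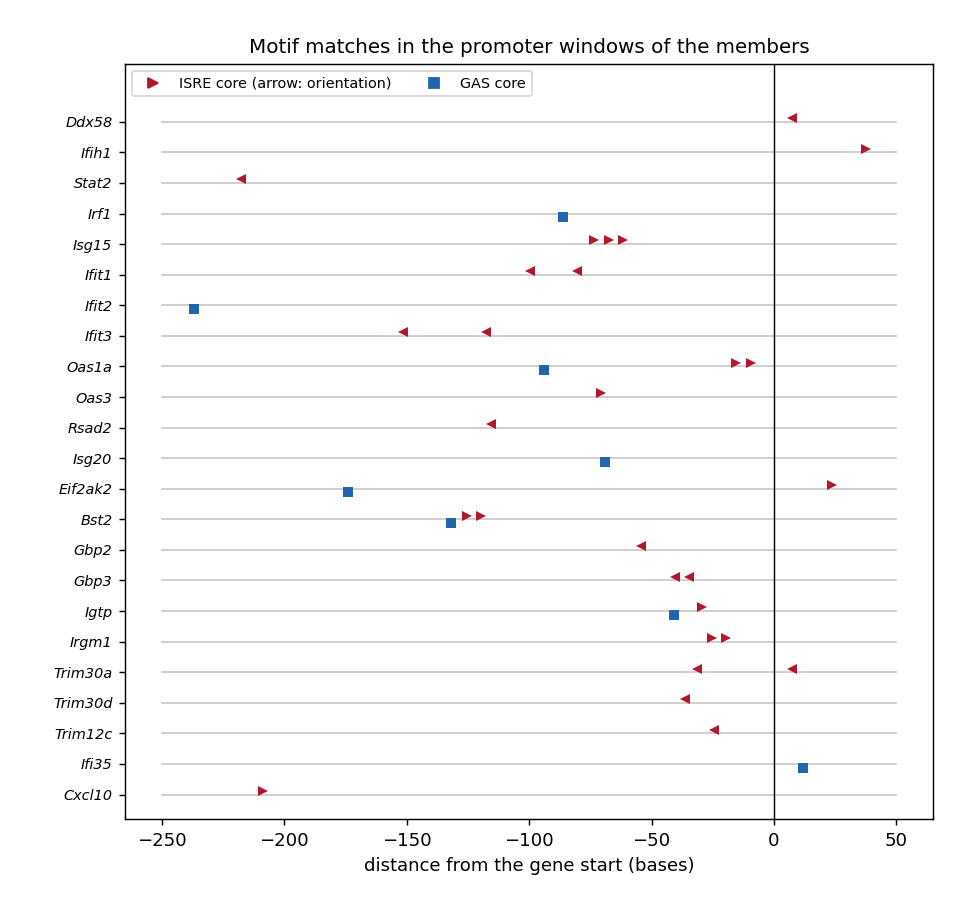
Each line is the promoter window of a member that held at least 1 match, with the distance from the gene start in bases on the x axis; windows of a gene with several starts are drawn on one line. Arrows mark the ISRE core and its orientation, squares the GAS core.

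Arrays of a group correlated at 0.982 to 0.992 over genes (not independent of each other), and 23150 to 26183 of 41174 probes per array were well above background. Levels are log2 signals relative to the 75th percentile of the array, changes are limma log2 differences ± SE, and a gene passed at an adjusted p under 0.05. Precision is limited by how many arrays there are. In the deposited table of processed values, the 4 columns of day 3 matched the scanner files of the other line, so levels here come from the scanner files, in which the day 3 arrays correlated with their own groups in the range above. Ptk2, the gene of FAK, was called in neither line comparison on its brighter probe (-0.07 in dense and -0.11 in sparse cells, KO minus rescue). Where that probe lies relative to the deleted part is unknown, so it does not check the line labels. Fibroblast markers were present in both lines, but their summed signal, in multiples of the 75th percentile, was 399 to 428 in dense KO and 387 to 423 in sparse KO cells, against 1075 to 1960 in dense and 1234 to 1420 in sparse rescue cells. Mesothelial markers summed to 154 to 170 in dense KO and 186 to 215 in sparse KO cells, against 25.1 to 37.3 in dense and 28.0 to 46.0 in sparse rescue cells. This sum hides larger differences of single markers. Of 8 tested, 7 were higher and 1 lower in dense KO cells, and 5 higher and 1 lower in sparse KO cells. Wt1, Upk3b and Lrrn4 were well above background on all KO arrays and on no rescue array. Msln ran the other way, with means of 3.20 in dense KO and 3.70 in sparse KO cells, against 4.86 in dense and 5.01 in sparse rescue cells. Single fibroblast markers did not all follow the sum. In dense KO cells 8 of 9 tested were lower than in dense rescue cells, and in sparse KO cells 6 were lower and 2 higher (Dcn by 4.77 and Pdgfra by 1.23). With density 2 of the 9 rose in KO cells and 5 in rescue cells, among them Dcn by 4.55 and Pdgfra by 3.71. What these differences contribute to the values of the members was not tested. A smaller share of expressing cells and less RNA per cell cannot be told apart in these bulk samples.

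Dense rescue cells stood apart from the other 3 groups. All 32 tested members were well above background on each of the 3 dense rescue arrays, against 18 to 21 on the dense KO, 17 to 19 on the sparse KO and 21 to 25 on the sparse rescue arrays. The median level of the 32 members was -4.42 to -4.19 on the dense KO arrays and -4.32 to -3.59 on the sparse KO arrays. It was -1.14 to -0.67 on the dense rescue arrays and -3.66 to -3.19 on the sparse rescue arrays, so the dense rescue arrays did not overlap with any other group. For 7 members the filter fixed this detection. Over the other 25, 18 to 20 were well above background on the dense KO, 17 to 18 on the sparse KO, 25 on the dense rescue and 21 to 24 on the sparse rescue arrays. Their median level was -3.10 to -2.14 in dense KO and -2.19 to -1.89 in sparse KO cells, against -0.64 to -0.21 in dense and -2.70 to -1.87 in sparse rescue cells. Some groups of tested members were measured in part: Gbp2 and Ifit3 were well above background on 1 of 3 sparse KO arrays, Igtp and Ifih1 on 2 and Dhx58 on 1 of 3 dense KO arrays, and Oasl1, Oasl2, Isg15 and Gbp3 on 1 of 3 sparse rescue arrays. The heatmap of all tested members shows this block and the few genes that run against it.

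**Figure D2:**
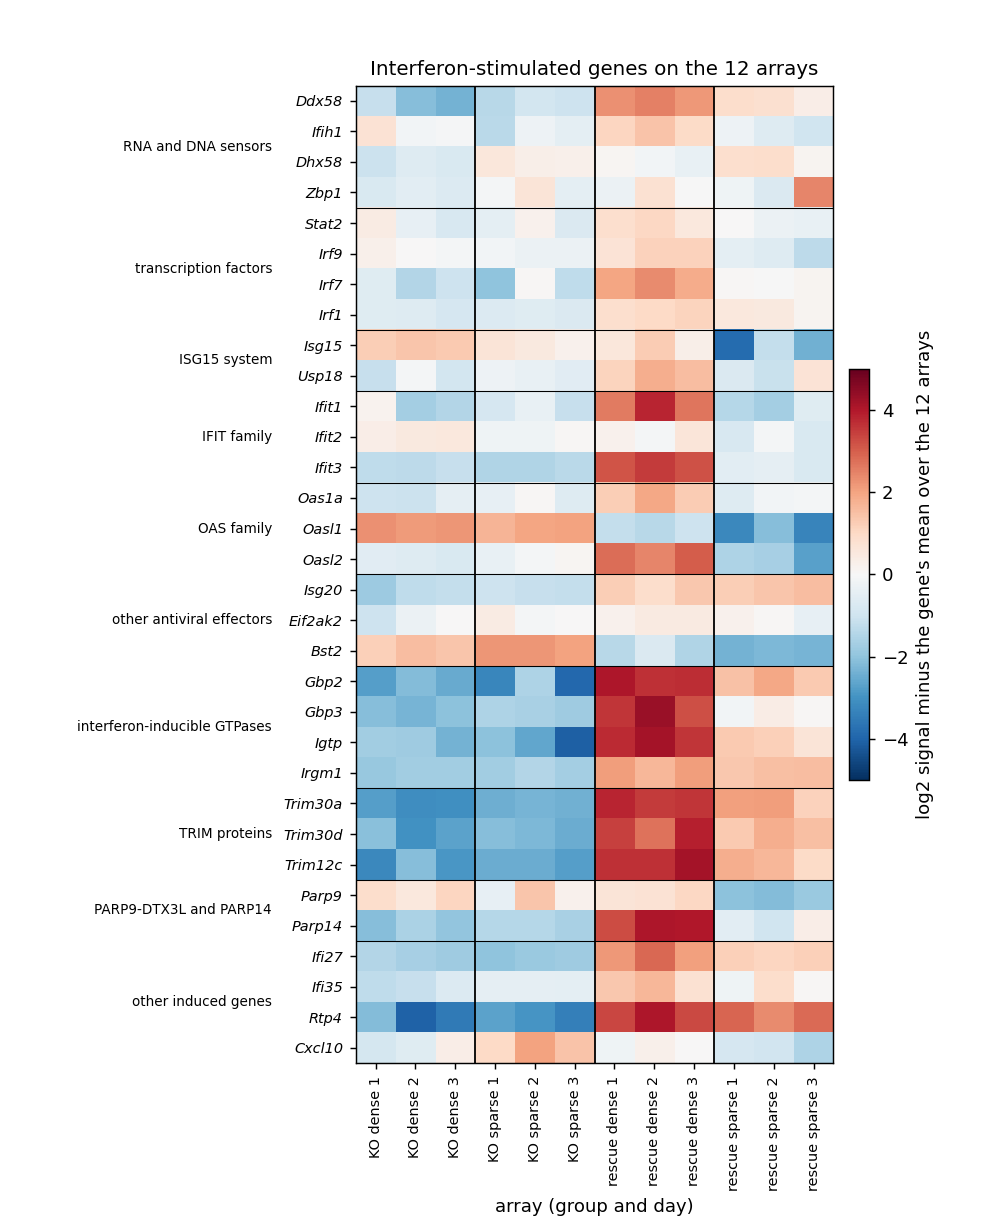
Rows are the 32 tested members ordered by role, columns the 12 arrays, and colour the log2 signal of an array minus the gene's mean over the 12 arrays. The dense rescue columns are red for most rows, while Oasl1, Bst2 and Isg15 are red in KO columns.

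The first comparison asked how the lines differ when crowded. In dense cells 25 of the 32 members were lower in KO than in rescue cells, 2 were higher and 5 did not pass, where 61.6% of all tested genes passed, 29.7% lower and 31.9% higher. The median difference of the members was -2.44, against 0.08 over all genes. These counts include the 7 members that passed only through the dense rescue arrays. With those arrays left out of the filter, a setting added after seeing the data, 19 of 25 members were lower and 2 higher. In that setting 7461 of 12102 genes passed in either direction. The 2 lines did not overlap for 28 members, where this held for 67.1% of all genes. All 4 transcription factors, all 4 interferon-inducible GTPases and all 3 TRIM genes were lower in dense KO cells, and the 2 genes that were higher were Oasl1 and Bst2. On the 1 slide that held both lines (day 2), 28 of the 32 members were lower in the KO culture, where 52.2% of all genes were, with a median of -2.91.

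Rtp4, Trim30a, Trim12c and Gbp2 had the largest fitted differences of the called members, and for all but Gbp2 no dense KO array was well above background. Gbp2 encodes a guanylate-binding protein that coats the vacuoles of intracellular microbes. Its level was -4.82, -4.23 and -4.60 in dense KO cells, against 1.98, 1.57 and 1.62 in dense rescue cells. The difference was -6.27 ± 0.47 (limma, adjusted p = 2.92e-07), and the groups were far apart. Igtp, for an immunity-related GTPase, had -5.17, -5.19 and -5.79 in dense KO cells, against 0.32, 0.73 and 0.17 in dense rescue cells (-5.79 ± 0.43, limma, adjusted p = 2.53e-07). Irgm1, which regulates such GTPases, was lower by less (-3.74 ± 0.17) and stayed well above background on all 12 arrays. Gbp3 was not well above background on any KO array and was at least 12.6-fold lower in dense KO cells.

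Trim30a encodes a feedback inhibitor of Toll-like receptor signalling. It had -7.67, -8.01 and -7.99 in dense KO cells, against -1.10, -1.42 and -1.33 in dense rescue cells. No KO array was well above background, so the gene was at least 24.4-fold lower by its brighter probe (limma, adjusted p = 4.82e-10). By the other Trim30a probe it was at least 12.8-fold lower. Trim12c, a relative on the same chromosome, had -8.10, -6.99 and -7.79 in dense KO cells, against -1.22, -1.21 and -0.70 in dense rescue cells, and was at least 28.8-fold lower. Trim30d, the direct neighbour of Trim30a, was at least 18-fold lower in dense KO cells. No probe sequence was at hand, so signal shared between these similar genes cannot be told apart. Rtp4, for a chaperone of membrane receptors, had -6.13, -8.0 and -7.50 in dense KO cells, against -0.64, 0.07 and -0.64 in dense rescue cells. This made Rtp4 at least 44.9-fold lower, and again no KO array was well above background.

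Among antiviral effectors, Ifit3, whose protein binds viral RNA together with Ifit1, was lower by 4.51 ± 0.16 on the log2 scale in dense KO cells. Ifit1 was at least 5.13-fold lower, while Ifit2, the direct neighbour of Ifit3, did not pass (0.22 ± 0.23). The other Ifit2 probe passed as lower (-0.58), so the probes of this gene disagree in sign. From sparse to dense seeding that probe fell in KO cells (-0.93, against 0.57 for the brighter probe). In rescue cells its change did not pass (0.31), and the KO change minus the rescue change passed (-1.24). Isg20, an exonuclease gene, was lower by 2.56 ± 0.20. Parp14, for an ADP-ribosyltransferase, was at least 12.4-fold lower, whereas Parp9 had a difference of 0.02 ± 0.36. Oas1a and Usp18, an oligoadenylate synthetase gene and that of the protease that removes Isg15, were at least 1.33-fold and 1.20-fold lower, and both were dim even in dense rescue cells.

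Of the 4 sensors 3 were lower in dense KO cells, and Zbp1 did not pass. Ddx58 encodes the cytosolic RNA sensor RIG-I. It had -2.14, -3.10 and -3.35 in dense KO cells, against 1.32, 1.55 and 1.18 in dense rescue cells (-4.21 ± 0.29, limma, adjusted p = 1.43e-07). Ifih1 (MDA5) and Dhx58 (LGP2), the related sensors, were lower by 0.98 ± 0.32 and 0.69 ± 0.23. Irf7, which amplifies interferon production, was at least 6.32-fold lower. Irf1 was lower by 1.68 ± 0.16, Stat2 by 1.06 ± 0.32 and Irf9 by 0.95 ± 0.23. The other Irf9 probe did not pass (-0.50), and the mean of both probes ended the call (-0.72). Ifi27 was lower by 3.99 ± 0.21 and Ifi35, for a partner of Nmi, by 2.30 ± 0.30.

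Oasl1, Bst2 and Oasl2 show that the members did not move as one. Oasl1, which in mouse represses translation of Irf7, had -1.03, -1.21 and -1.13 in dense KO cells, against -4.53, -4.72 and -4.37 in dense rescue cells. It was higher by 3.42 ± 0.27 in KO cells (limma, adjusted p = 4.78e-07). Oasl2, its direct neighbour on chromosome 5, was lower by 3.40 ± 0.29 in the same comparison (-4.04, -4.14 and -4.24 in dense KO cells, against -0.70, -1.06 and -0.45 in dense rescue cells). Bst2 encodes tetherin, which holds budding virus at the cell surface. It had 3.24, 3.61 and 3.45 in dense KO cells, against 0.67, 1.33 and 0.57 in dense rescue cells, and was higher by 2.58 ± 0.20 (limma, adjusted p = 4.75e-07).

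With normexp background correction in place of the scanner's own, and an offset of 50 units added before the log, 15 members were lower in dense KO cells and 2 higher. Of all 12435 genes, 5028 passed in this setting, against 7666 with the scanner's own correction. The calls of Ifit1, Gbp3, Parp14, Irf7, Irf9 and Eif2ak2 were lost, and Ifih1, Dhx58, Usp18 and Oas1a turned slightly positive. Single arrays decided 4 calls: Dhx58 lost its call without KO dense 1 (-0.56) or rescue dense 1 (-0.57), and Eif2ak2, for the kinase PKR (-0.81 ± 0.27), without KO dense 1 (-0.51), rescue dense 2 (-0.77) or rescue dense 3 (-0.76). Ifih1 lost it without KO dense 2 (-0.83), KO dense 3 (-0.86) or rescue dense 2 (-0.84), and Stat2 without KO dense 3 (-0.79). With the slide as a block the same 4 calls ended, and with spike-in scaling, which moved all genes by 0.82, 19 members were lower and 3 higher, Dhx58 and Eif2ak2 turning slightly positive. Under spike-in scaling 6945 of all 12435 genes passed.

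**Figure D3:**
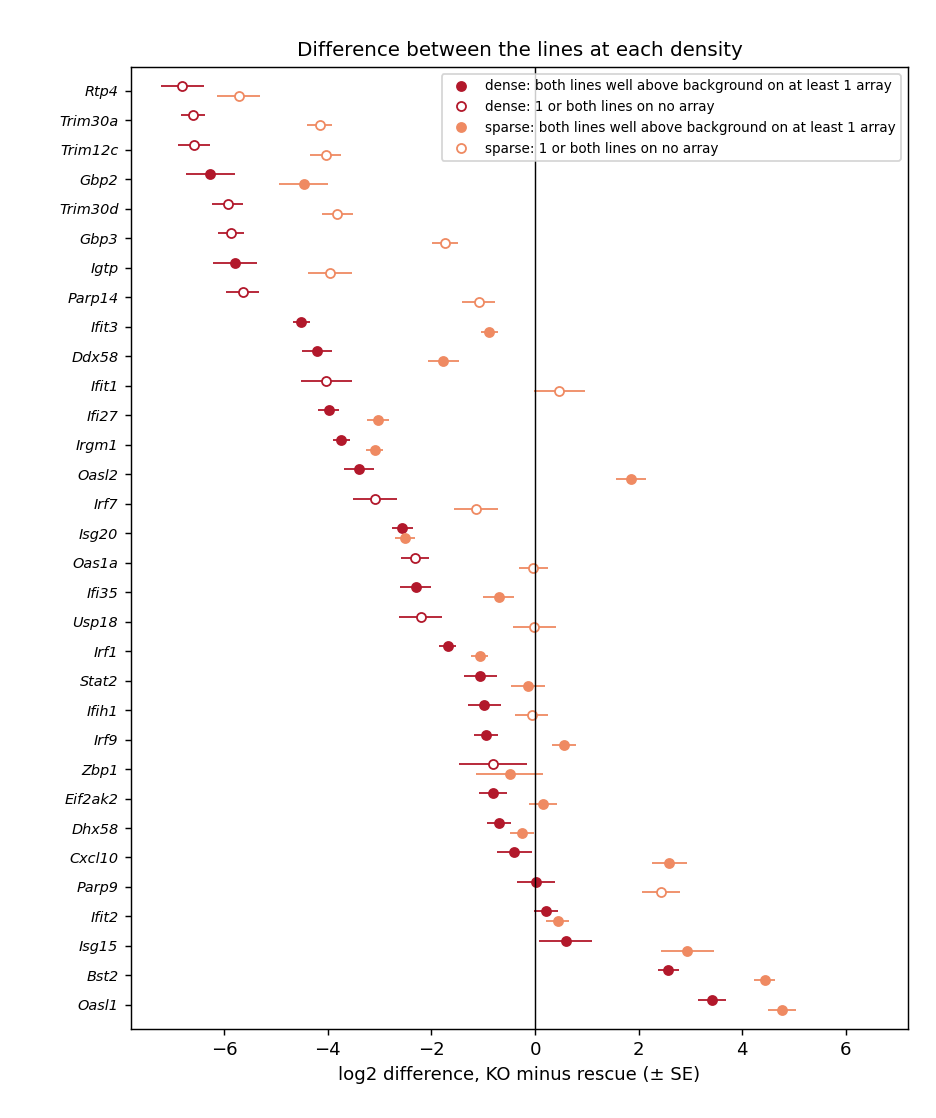
KO minus rescue log2 difference ± SE (x axis) of each tested member at the dense (dark) and the sparse (light) seeding, ordered by the dense difference; open points have at least 1 line that was well above background on no array. Most dense points lie left of 0, and Oasl1 and Bst2 lie right of 0 at both densities.

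In sparse cells the lines differed in both directions. Of the 32 members, 15 were lower in KO than in rescue cells, 6 were higher and 11 did not pass, where 48.8% of all genes passed, 25.6% lower and 23.2% higher. The median was -0.60, against 0.03 over all genes. Groups did not overlap for 22 members, where this held for 58.9% of all genes. The 15 genes lower in sparse KO cells were all lower in dense KO cells too. These 2 comparisons use different cultures, but they share the lines and days. On the shared slide 18 of 32 members were lower in the sparse KO culture, where 50.5% of all genes were, with a median of -0.29.

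GTPase, TRIM and Rtp4 transcripts were again lower. Gbp2 had -5.33, -3.61 and -6.00 in sparse KO cells, against -0.60, -0.16 and -0.77 in sparse rescue cells (-4.47 ± 0.47, limma, adjusted p = 7.96e-06). Rtp4 had -6.63, -6.91 and -7.39 in sparse KO cells, against -1.06, -1.58 and -1.13 in sparse rescue cells, which made it at least 16.8-fold lower. Neither gene's groups overlapped. Igtp was at least 7.82-fold lower, and Trim30a, Trim12c and Trim30d were at least 4.56-fold, 3.83-fold and 3.50-fold lower. By its other probe Trim30a was at least 2.10-fold lower. Irgm1 was lower by 3.10 ± 0.17, Ifi27 by 3.03 ± 0.21, Isg20 by 2.51 ± 0.20, Ddx58 by 1.77 ± 0.29 and Irf1 by 1.07 ± 0.16. Parp14 passed too, but it was not well above background on any sparse array of either line, so no fold is given.

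Of the tested members, 6 were higher in sparse KO than in sparse rescue cells: Oasl1, Bst2, Isg15, Cxcl10, Parp9 and Oasl2. Oasl1 had -1.64, -1.37 and -1.31 in sparse KO cells, against -6.54, -5.46 and -6.61 in sparse rescue cells (4.76 ± 0.27, limma, adjusted p = 3.14e-08). Bst2 had 4.25, 4.25 and 4.09 in sparse KO cells, against -0.28, -0.17 and -0.27 in sparse rescue cells (4.44 ± 0.20, limma, adjusted p = 4.59e-09). Both genes were higher in KO cells at either density. Isg15, the ubiquitin-like modifier, was higher by 2.94 ± 0.51, and its sparse rescue cultures ranged widely (-6.71, -4.04 and -5.26). Cxcl10, a chemokine for activated lymphocytes, was higher by 2.59 ± 0.34, and Parp9, whose protein works with Dtx3l, was at least 4.22-fold higher. Oasl2 was higher by 1.85 ± 0.29 in sparse KO cells and lower in dense KO cells, the only tested member that passed in opposite directions.

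With normexp and its offset the sparse counts were 5 lower and 5 higher, where 3355 of all 12435 genes passed. The median turned to 0.36, against 0.14 over all genes. The 5 lower calls that held were Gbp2, Irgm1, Isg20, Irf1 and Ifi27. With spike-in scaling, which moved all genes by -1.55, 25 were lower and 3 higher, where 9466 of all 12435 genes passed. The slide as a block ended the calls of Irf7 (-0.90) and Parp14 (-0.74), and Ifi35 passed (-1.27). Irf7 (at least 1.06-fold lower in sparse KO cells, -1.13 ± 0.42) lost its call with the day as a block, and also without KO sparse 1 (-0.66) or 3 (-1.04), KO dense 3 (-1.13), rescue sparse 1 (-1.13), 2 (-1.18) or 3 (-1.10), or rescue dense 1 (-1.13) or 3 (-1.13).

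**Figure D4:**
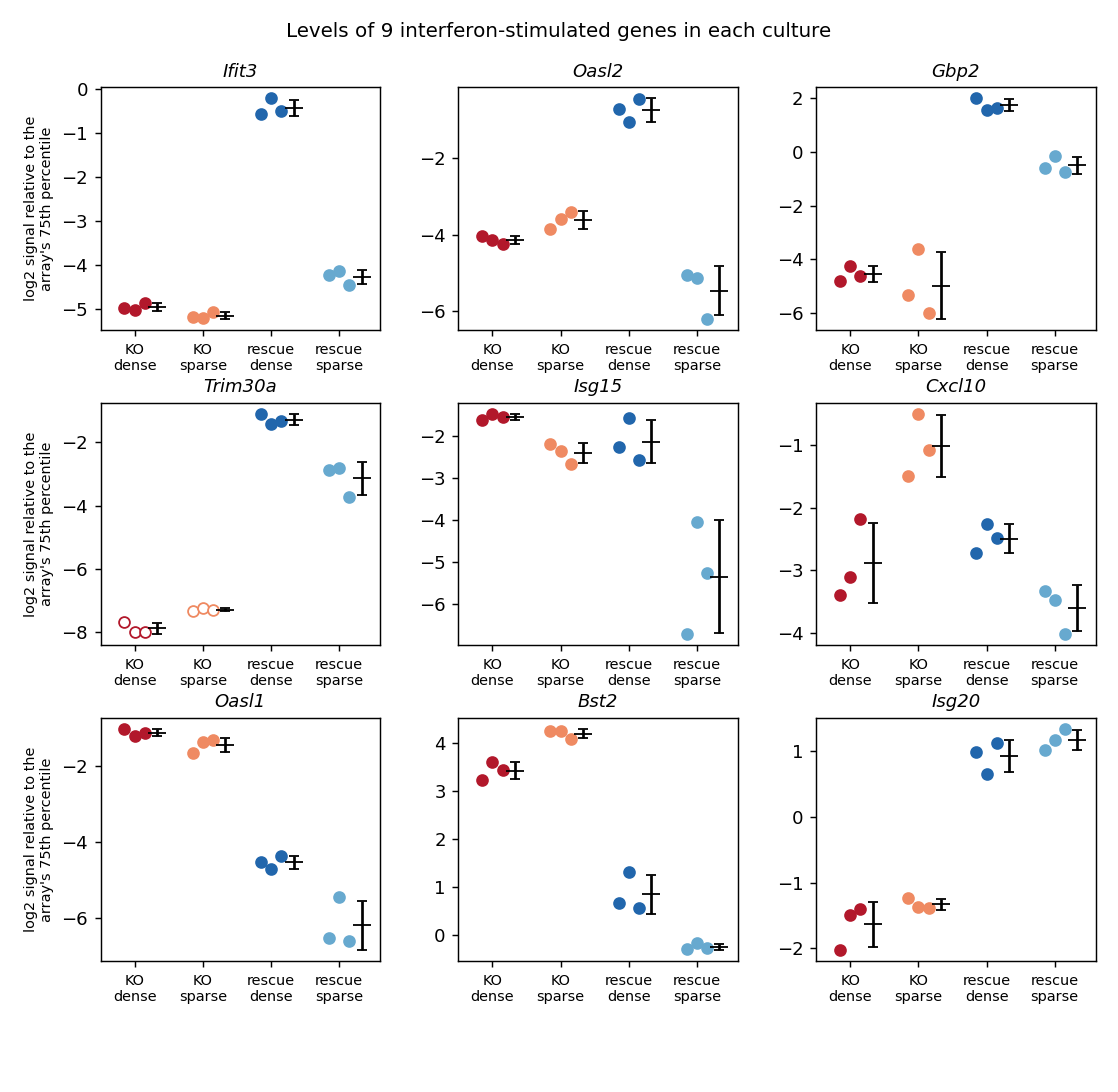
Log2 signal relative to the array's 75th percentile (y axis) of 9 members in each culture, with the mean ± SD of 3 cultures beside the points; open points belong to groups that were well above background on no array. Ifit3, Oasl2, Gbp2 and Trim30a were highest in dense rescue cells, Oasl1 and Bst2 were higher in KO cells, and Isg20 differed between the lines at both densities.

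Crowding was compared within each line next. In rescue cells 27 of the 32 members were higher at the dense than at the sparse seeding, 1 was lower and 4 did not pass, where 40% of all genes passed, 19% higher and 21% lower. The median change was 1.77, against -0.08 over all genes. Here too the 7 members that passed only through the dense rescue arrays are included. With those arrays left out of the filter, 21 of 25 members were higher and 1 lower, where 4830 of 12102 genes passed. Groups did not overlap for 28 members, where this held for 50.7% of all genes. Both densities of a line and day lay on the same slide, and 28 members were higher in the dense rescue culture on every day, where this held for 30.6% of all genes, with medians of 1.66, 1.73 and 1.78 on days 1, 2 and 3.

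Oasl2, Ifit1, Parp14 and Ifit3 rose most of the called members in dense rescue cells. Oasl2 had -0.70, -1.06 and -0.45 in dense rescue cells, against -5.05, -5.13 and -6.20 in sparse rescue cells (4.72 ± 0.29, limma, adjusted p = 1.24e-06). Ifit1 had -3.98, -2.74 and -3.87 in dense rescue cells, against -8.0, -8.25 and -7.18 in sparse rescue cells, where it was never well above background, and rose at least 5.44-fold. Parp14 had -2.77, -1.99 and -2.03 in dense rescue cells, against -6.54, -7.00 and -5.69 in sparse rescue cells, and rose at least 11.8-fold. All of these groups were far apart. Ifit3 had -0.56, -0.21 and -0.51 in dense rescue cells, against -4.22, -4.12 and -4.44 in sparse rescue cells (3.83 ± 0.16, limma, adjusted p = 1.99e-07). Gbp3 rose by 3.59 ± 0.25, Isg15 by 3.20 ± 0.51 and Igtp by 2.77 ± 0.43, and Parp9 rose at least 5.55-fold. Ifit1, Parp14 and Gbp3 passed the filter only through the dense rescue arrays, so a rise for them was built in.

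All 4 transcription factors rose with density in rescue cells: Irf7 by 2.00 ± 0.42, Irf9 by 1.81 ± 0.23, Stat2 by 1.00 ± 0.32 and Irf1 by 0.59 ± 0.16. The other probes of Irf9 (1.40) and Irf1 (0.37) pointed the same way but did not pass. The TRIM genes rose by 1.80 to 2.35. Dhx58 was the 1 member that fell (-0.77 ± 0.23), with -4.41, -4.64 and -4.88 in dense rescue cells, against -3.65, -3.62 and -4.36 in sparse rescue cells. Isg20, Eif2ak2, Zbp1 and Rtp4 did not pass. Zbp1, a nucleic acid sensor, had 1 sparse rescue culture (day 3) at -2.99, far above the others at -5.65 and -6.13.

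With normexp 8 members were higher in dense rescue cells and none lower, where 2321 of all 12435 genes passed in either direction. With spike-in scaling, which moved all genes by 0.72, the calls of Dhx58 (-0.041) and Irgm1 (1.21) ended, and with the slide as a block that of Irgm1 (0.48). Single arrays decided the smaller changes. Dhx58 lost its call without rescue sparse 1 (-0.65) or 2 (-0.64) or rescue dense 3 (-0.65), Ifit2 (0.79 ± 0.23) without rescue sparse 1 (0.67) or 3 (0.68) or rescue dense 3 (0.61), and Cxcl10 (1.12 ± 0.34) without rescue sparse 3 (0.91) or rescue dense 2 (1.00). Ifi35 (1.02 ± 0.30) lost it without rescue sparse 1 (0.79) or 3 (0.93) or rescue dense 1 (0.98) or 2 (0.82), and Stat2 without rescue sparse 2 (0.96) or 3 (0.92) or rescue dense 1 (0.98) or 2 (0.88). Irgm1 (0.48 ± 0.17) lost it without any of 8 arrays, namely KO sparse 2 or 3, KO dense 2 or 3, rescue sparse 1 or 2 and rescue dense 1 or 3 (0.41 to 0.50).

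In KO cells none of the 32 members was higher at the dense seeding, 3 were lower and 29 did not pass, where 10.9% of all genes passed, 5.44% higher and 5.47% lower. The median change was -0.22, against -0.0029 over all genes. Groups did not overlap for 16 members, where this held for 38.2% of all genes. Cxcl10 had -3.40, -3.10 and -2.17 in dense KO cells, against -1.49, -0.50 and -1.07 in sparse KO cells (-1.87 ± 0.34, limma, adjusted p = 0.00674). Dhx58 had -5.58, -5.15 and -5.27 in dense KO cells, against -3.93, -4.22 and -4.26 in sparse KO cells (-1.19 ± 0.23). Bst2 was lower in dense KO cells by 0.76 ± 0.20 (3.24, 3.61 and 3.45 in dense KO cells, against 4.25, 4.25 and 4.09 in sparse KO cells), a call that ended when any 1 of the 6 KO arrays was left out (-0.85 to -0.67). By day, 8 members were higher in the dense KO culture on every day and 12 lower, where 28.5% of all genes were higher and 28.7% lower on every day, with medians of 0.05, -0.59 and -0.08. With normexp no member was called in KO cells, where 48 of all 12435 genes were. With scaling to the spike-in RNA, which moved the median of all genes by 3.10 in this comparison, all 32 were called higher in dense KO cells, Cxcl10, Dhx58 and Bst2 included, so the lower calls hold only relative to the other genes. Under this scaling 12379 of all 12435 genes passed, so the count of 32 says little about the members.

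Whether the density response differed between the lines was tested directly, as the KO response minus the rescue response. It was lower in KO cells for 20 of the 32 members, higher for none and not past the test for 12, where 20.7% of all genes passed, 9.47% lower and 11.3% higher. The median was -1.84, against 0.04 over all genes. Oasl2 (-5.25 ± 0.41, limma, adjusted p = 3.05e-05), Parp14 (-4.56 ± 0.45), Ifit1 (-4.49 ± 0.70) and Gbp3 (-4.12 ± 0.36) differed most. Their rescue values are given above except for Gbp3. Oasl2 had -4.04, -4.14 and -4.24 in dense KO cells, against -3.86, -3.58 and -3.39 in sparse KO cells. Parp14 had -8.14, -7.59 and -7.99 in dense KO cells, against -7.43, -7.44 and -7.63 in sparse KO cells. Ifit1 had -6.40, -8.25 and -8.03 in dense KO cells, against -7.40, -6.92 and -7.71 in sparse KO cells. Parp14 and Ifit1 thus stayed low in KO cells at both densities. Oasl2 was well above background on all KO arrays and higher in sparse KO than in sparse rescue cells (1.85 ± 0.29). Its difference in response thus also rests on its low level in sparse rescue cells. Gbp3 had -8.07, -8.24 and -7.98 in dense KO cells and -7.46, -7.55 and -7.69 in sparse KO cells, against -2.36, -1.63 and -2.71 in dense rescue cells and -6.07, -5.55 and -5.86 in sparse rescue cells. Parp14, Ifit1 and Gbp3 passed the filter only through dense rescue cells, so a difference for them was built in. Of the 20 members that passed, 9 (these 3 and Trim12c, Trim30a, Trim30d, Oas1a, Usp18 and Irf7) were not well above background on any KO array, so their fitted differences depend on values near the floor of the array. Without the dense rescue arrays in the filter, 15 of 25 members passed, where 2455 of 12102 genes did.

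With normexp 2 members passed in this test, where 567 of all 12435 genes did. With the day as a block 22 members passed, Gbp2 (-1.80) and Igtp (-1.83) in addition, where 2954 of all genes did. With the slide as a block these 2 passed too, but Irf7 (-1.96), Oasl1 (-1.35) and Ifi27 (-0.95) did not. Scaling to the spike-in RNA moved the median of all genes by 2.37 in this difference and gave 4 members lower and 9 higher. Of all 12435 genes, 10802 passed under that scaling. Both scalings subtract 1 value per array, so they cannot change where the members stand relative to the median of all genes. That position was -1.89 in the test of the difference and -0.22 in the KO density comparison. Its being the same under both scalings is thus no check of the result. Most single arrays decided 4 calls. That of Irf7 ended without any array but KO sparse 1 or 2 or KO dense 1 (-2.06 to -1.74), and that of Isg15 without any but rescue sparse 1 or 2 or rescue dense 3 (-2.48 to -2.07). That of Ifi27 ended without any but KO dense 1 or rescue dense 1 or 3 (-1.01 to -0.70), and that of Oasl1 without any but KO sparse 1, KO dense 1, rescue sparse 2 or rescue dense 2 (-1.34 to -1.14). Usp18 lost its call without KO dense 3 (-2.09) or rescue dense 2 (-2.04).

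**Figure D5:**
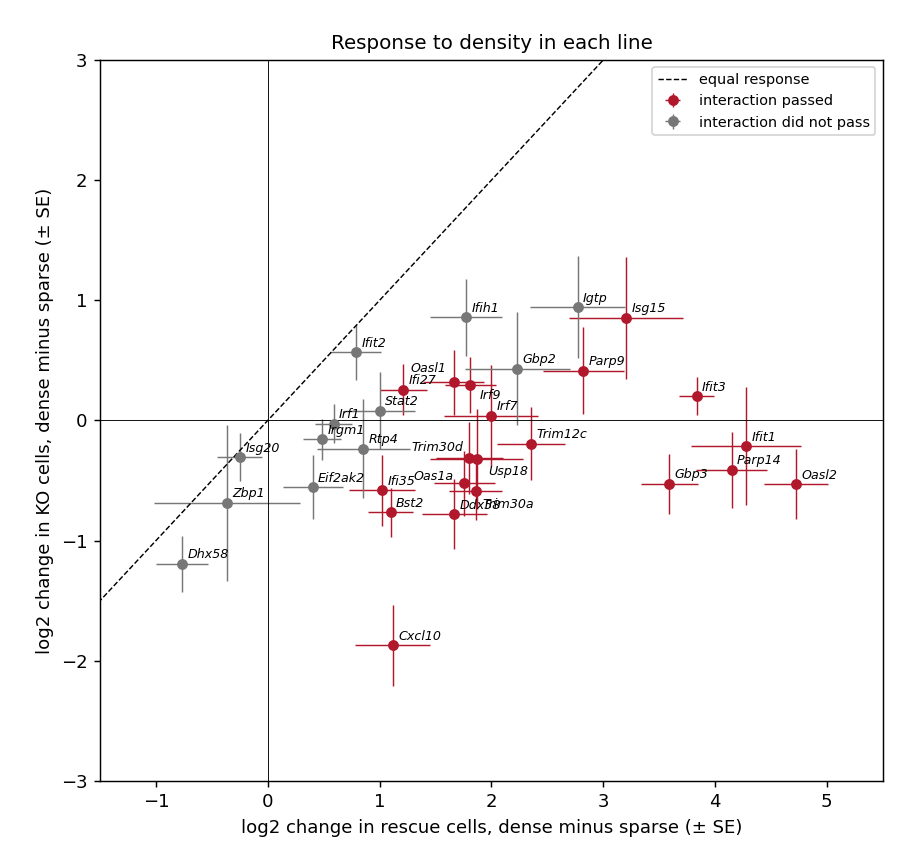
Dense minus sparse log2 change ± SE of each tested member in KO cells (y axis) against rescue cells (x axis); red members passed the test of the difference, and the dashed line marks an equal response. Most members lie to the right of the line, near 0 in KO cells and between 0.5 and 4.7 in rescue cells.

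Other genes of the pathway came from a list of named ligands, receptors, transducers, sensors, regulators and further induced genes, of which 65 were tested. In dense cells 31 of the 65 were lower in KO than in rescue cells and 9 higher, where 29.7% of all genes were lower and 31.9% higher. In sparse cells 24 were lower and 9 higher, where 25.6% of all genes were lower and 23.2% higher. Of 7 genes for interferon receptors and their kinases, 6 were lower in dense and 5 in sparse KO cells. Ifnar1 was lower by 1.59 in dense and by 1.71 in sparse KO cells, Ifnar2 by 1.01 and 0.90, and Tyk2 by 2.51 and 1.38. Jak2 did not pass at either density (0.45 and 0.44). Irf3, which starts interferon transcription, passed at neither density (-0.18 and -0.12).

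Most interferon transcripts were near background. Ifnb1, Ifna4, Ifng, Ifne and Ifnk did not pass the filter, while Ifna1 passed it and was called in no comparison. Ifnb1 was well above background on 2 arrays, rescue dense 2 (-2.17) and KO sparse 1 (-4.12), and lay between -8.11 and -6.77 on the other 10. Il6, the other ligand tested, was lower in KO cells, by 2.77 in dense and by 1.14 in sparse cells. Socs1, a feedback inhibitor of the kinases, was lower by 2.78 in dense and by 4.48 in sparse KO cells, whereas Socs3 was higher in dense KO cells (2.07). Among 34 further induced genes, 19 were lower and 4 higher in dense KO cells, among them Parp12, Apol9b and Irgm2. Parp12 was not well above background on any KO array and was at least 61.6-fold lower in dense KO cells. Apol9b was lower by 7.18, and Irgm2, well above background on 1 of 3 dense KO arrays, by 4.84. Trim25, for the ligase that activates RIG-I, was higher by 4.72 in dense KO cells and at least 50.8-fold higher in sparse KO cells, where no sparse rescue array was well above background. Rnf213 was higher in KO cells by 3.03 in dense and by 4.19 in sparse cells. With density, 3 of the 65 rose and 4 fell in KO cells, where 5.44% of all genes rose and 5.47% fell, so these shares lie near those of all genes. In rescue cells 23 rose and 4 fell, where 19% of all genes rose and 21% fell.

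Markers of immune cells differed in level. Ptprc, Aif1, Laptm5 and Siglech were well above background on no array, but Csf1r, a receptor of macrophages, was so on all 12, with means of -1.75 in dense KO and -0.95 in sparse KO cells, against -1.91 in dense and -0.69 in sparse rescue cells. The summed signal of 9 leukocyte and macrophage markers was 0.329 to 0.451 in dense KO and 0.536 to 0.967 in sparse KO cells, against 0.375 to 0.495 in dense and 0.633 to 0.888 in sparse rescue cells. The 4 markers of plasmacytoid dendritic cells, of which Bst2 is itself a member, summed to 12.8 to 13.8 in dense KO and 18.4 to 20.4 in sparse KO cells, against 10.3 to 13.1 in dense and 7.57 to 9.70 in sparse rescue cells. This sum hides opposite directions, since Bst2 was higher in KO cells at both densities and Tcf4 was lower. Means of Tcf4 were 1.09 in dense KO and 0.42 in sparse KO cells, against 3.32 in dense and 2.93 in sparse rescue cells. Ccr9 was dim, with group means of -6.49 to -5.48. Lyz2 was well above background on all 6 rescue arrays and on no KO array, and was at least 7.13-fold lower in dense and at least 3.14-fold lower in sparse KO cells. What these markers contribute to the values of the members was not tested.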

How the data were processed

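RNA (100 ng per culture) was labelled and hybridised by the authors to 12 one-colour arrays, per the labels' protocols. The deposited scanner files hold spot intensity on a linear scale from Agilent Feature Extraction 10.5.1.1, per the file headers, background-subtracted but unscaled across arrays. A deposited table of values is log2 intensity whose normalisation is not given in the sources used here; it served as an alternative. Flagged spots were left out, the 75th percentile of each array was subtracted from log2 signal, and probes were named by RefSeq accession. Probes marked well above background by the scanner software on each of the 3 arrays of a group were kept, and the brightest stood for its gene. The test was limma (version 3.58.1, R 4.3.3, files read with version 1.17.8 of data.table), with 4 group means and 5 comparisons, and Benjamini-Hochberg adjustment over 12435 genes and a threshold of 0.05. The script was tested on simulated data. With 3 against 3 cultures a permutation test could not go below 0.1. For a group with no array well above background, the bound ("at least") uses, per array, the higher of the lowest well-above-background signal and the probe's own.

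The members and lists were chosen with earlier results of these data known. Any member or list gene could be named. Values per culture were given for the 4 members with the largest called change, the 2 with the largest opposite one and the 4 largest differences in response, and for some others chosen after their values were seen. The replicate number is the experimental day, per the labels, which pairs the cultures; 11 of 18 same-day pairs of arrays had correlated deviations above 0.1 (range -0.038 to 0.292). The lines shared 1 of 5 slides, so line and slide cannot be told apart on the other days. Median background-corrected intensity was 19.5 to 84.6 units per array. Normexp used median spot signals, since the files hold no mean signal. An offset of 50 units was then added to every spot before the log, which shrinks differences between dim signals. Arrays differ in brightness, so the floor made by the offset lies at different levels on different arrays. How much of the change under normexp comes from the offset was not tested.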

Additional observations from a re-analysis of the deposited data

Results flagged for a closer look

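The density response (dense minus sparse) differed between KO and rescue cells for 20 members by the test of the difference itself, and every one was lower in KO cells. Log2 differences, KO response minus rescue response, were -5.25 for Oasl2, -4.56 for Parp14, -4.49 for Ifit1, -4.12 for Gbp3 and -3.63 for Ifit3. They were -2.99 for Cxcl10, -2.55 for Trim12c, -2.45 for Trim30a, -2.45 for Ddx58, -2.41 for Parp9 and -2.35 for Isg15. Further values were -2.28 for Oas1a, -2.19 for Usp18, -2.12 for Trim30d, -1.96 for Irf7, -1.86 for Bst2 and -1.60 for Ifi35. The smallest were -1.52 for Irf9, -1.35 for Oasl1 and -0.95 for Ifi27. Cxcl10 and Bst2 were called in opposite directions in the lines, lower at the dense seeding in KO cells and higher in rescue cells. For 9 of the 20, Parp14, Ifit1, Gbp3, Trim12c, Trim30a, Trim30d, Oas1a, Usp18 and Irf7, no KO array was well above background, so these differences depend on values near the floor of the array. Of these, Parp14, Ifit1, Gbp3, Oas1a and Usp18 passed the filter only through the dense rescue arrays.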

How the results depend on the processing

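Counts of members (of 32) are given as lower and higher, in the order dense KO minus rescue, sparse KO minus rescue, dense minus sparse in KO, dense minus sparse in rescue, and difference in response. Normexp gave 15 and 2, 5 and 5, 0 and 0, 0 and 8, 2 and 0. Spike-in scaling gave 19 and 3, 25 and 3, 0 and 32, 0 and 27, 4 and 9, with all genes shifted by 0.82, -1.55, 3.10, 0.72 and 2.37. Of all 12435 genes, 5028, 3355, 48, 2321 and 567 passed with normexp, in the same order. With spike-in scaling 6945, 9466, 12379, 3432 and 10802 passed, and in the main setting 7666, 6067, 1356, 4977 and 2579. Quantile normalisation and median centring gave 25 and 2 in dense cells and 1 member higher in KO density; quantile left 0 lower in rescue density, and centring shifted all genes by 0.25 or more in size in 3 comparisons. The mean of all kept probes gave 24 and 2, 15 and 7, 4 and 0, 1 and 27, 23 and 0. Requiring all 12 arrays left 12 members: 9 and 1, 5 and 3, 2 and 0, 0 and 10, 6 and 0. Of the 10062 genes so kept, 6143, 4876, 1398, 4501 and 2332 passed. The deposited table, whose day 3 columns match the other line, gave 0 calls, and without day 3, added after seeing the data, 22 and 2, 13 and 6, 1 and 0, 0 and 22, 14 and 0. Without day 3, 6838, 5102, 775, 3652 and 1402 of 12413 genes passed. Applying the filter without the dense rescue arrays, added likewise, left 25 members: 19 and 2, 13 and 6, 3 and 0, 1 and 21, 15 and 0. Under that filter 7461, 6027, 1406, 4830 and 2455 of 12102 genes passed. Leaving out 1 array gave 23 to 25 and 2, 14 to 15 and 6 to 7, 2 to 4 and 0 to 1, 0 to 1 and 23 to 28, and 16 to 21 and 0.

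Some directions turned. With normexp in sparse cells the median became 0.36, Irf7 0.46, Ifit3 0.24, Gbp3 0.38 and Parp14 0.52, and in dense cells Ifih1 became 0.030, Dhx58 0.066, Usp18 0.032 and Oas1a 0.11. With spike-in scaling Dhx58 became 0.14 and Eif2ak2 0.018 in dense cells; in KO density the median became 2.87, Dhx58 1.90, Bst2 2.33 and Cxcl10 1.22; in the difference of response the median became 0.53, Irf9 0.85, Irf7 0.41, Isg15 0.021, Usp18 0.18, Oas1a 0.089, Oasl1 1.03, Bst2 0.51, Trim30d 0.26, Ifi27 1.42 and Ifi35 0.77. The KO density median became 0.089 with quantile normalisation, 0.027 with centring, 0.51 in the deposited table and 0.027 there without day 3. The deposited table turned the response difference of Irf9 (0.003) and Oasl1 (0.30, or 0.046 without day 3). The causes were not tested. With the day as a replicate block the counts were 25 and 2, 14 and 6, 3 and 0, 1 and 27, and 22 and 0, and beside Irf7, Gbp2 and Igtp it changed no call of a member. With the slide as a block, where the line difference rests on 1 slide, they were 21 and 2, 14 and 6, 3 and 0, 1 and 26, and 19 and 0. Signal over background limits the dim members: 11 of 32 were well above background on no dense KO array.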

Other observations

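In the deposited value table, 8 columns matched the scanner file of their own culture best, and the 4 columns of day 3 matched that of the other line at the same density. For KO dense 3, the correlation across probes was 0.835 with its own scanner file and 0.972 with that of rescue dense 3. The results above use the scanner files, and the cause was not tested.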
